A study of Mus musculus with 8 samples.

Results

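The genes described here are 10 members of the Bcl2 family of apoptosis regulators, taken by symbol from a table of read counts for 57132 mouse genes. They are the pore formers Bax and Bak1, the protectors Bcl2, Bcl2l1 and Mcl1, and the BH3-only genes Bcl2l11, Bbc3, Pmaip1, Bid and Bad. Each symbol stood on 1 Ensembl identifier, and all 10 were among the 16588 genes with enough reads to test. Bulk RNA came from subcutaneous KPC tumours, a model of cancer of the pancreas grown in mice. One group of 4 libraries, PDT, came from tumours under targeted photodynamic therapy with Ce6@D4-EV. Photodynamic therapy pairs a dye with light, which then yields reactive oxygen. Ce6 is the usual short name of such a dye, chlorin e6, and the labels do not explain D4-EV. The other group of 4 came from tumours treated with PBS, a buffered saline. Both groups carried the same kind of tumour, and the labels used here give no strain, genotype, sex, age, dose or time of harvest, nor whether the libraries of a group came from separate mice. P-values therefore measure the spread between these samples, which may be technical, and an arm with light alone or with unlit agent was not analysed here.

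Proteins of this family decide whether the outer membrane of the mitochondrion is opened, the committing step of the intrinsic pathway of apoptosis. Bax and Bak1 form the pores that release cytochrome c, Bcl2, Bcl2l1 (Bcl-xL) and Mcl1 hold the pore formers in check, and BH3-only proteins carry stress signals by binding the protectors or the pore formers. Much of this control acts on the proteins by binding, cleavage and degradation, so transcript levels show only the supply of each member. Photodynamic damage by porphyrin-like sensitisers is known to reach mitochondria, and loss of Bcl2 protein and release of cytochrome c are described effects of it in cultured cells.

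Summed gene counts ran from 39026840 to 48804713 in PDT libraries and from 35742024 to 40337306 in PBS libraries. PBS 1 stood apart on the first principal component (score −111.5), where PBS 2 to PBS 4 scored −8.53 to 4.32. Mitochondrial genes took 1.56% to 2.27% of reads in PDT and 2.26% to 3.14% in PBS. The labels call the tissue sorted and name no gate. All 6 keratin and junction markers of ductal tumour cells were read in every library, summing to 3038 to 6109 CPM (reads per 1000000 reads of the scaled library) in PDT and 3475 to 7117 CPM in PBS. All 10 macrophage markers were higher in PDT, summing to 4958 to 6696 CPM in PDT and 2019 to 4109 CPM in PBS, and so were all 8 neutrophil markers, at 171 to 614 CPM in PDT and 89.3 to 237 CPM in PBS. Markers of NK cells were 5 of 5 higher (median log2 fold change 1.23), of T cells 7 of 8 (1.32) and of skeletal muscle 5 of 5 (1.65), and all 4 erythroid markers were lower (−1.35). Skeletal muscle sums overlapped widely, at 138 to 3144 CPM in PDT and 48.3 to 1272 CPM in PBS. Erythroid sums also overlapped, at 528 to 1214 CPM in PDT and 714 to 3822 CPM in PBS. Of the NK cell markers 4 had no reads in some library, and so had 4 of the T cell markers. In such bulk samples fewer cells of a type and less RNA per cell cannot be told apart.

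Stretches upstream of Bax, Bak1 and Bcl2 are shown because these were both pore formers and the protector with the most negative difference. Each is the 250 bases before the annotated start, 5′ to 3′ on the strand of the gene, from RefSeq on GRCm38.p6, a build before the one named for the counts. Capitals mark 2 sequence motifs searched on both strands, the GC box GGGCGG and the E box CACGTG, which do not overlap each other in these windows.
Bax, minus strand, chr7:45466899-45467148: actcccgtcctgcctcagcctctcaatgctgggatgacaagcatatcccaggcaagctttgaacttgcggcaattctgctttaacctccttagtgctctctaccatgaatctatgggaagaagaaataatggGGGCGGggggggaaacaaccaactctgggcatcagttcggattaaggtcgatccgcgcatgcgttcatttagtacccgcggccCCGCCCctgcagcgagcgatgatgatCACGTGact
Bak1, minus strand, chr17:27028628-27028877: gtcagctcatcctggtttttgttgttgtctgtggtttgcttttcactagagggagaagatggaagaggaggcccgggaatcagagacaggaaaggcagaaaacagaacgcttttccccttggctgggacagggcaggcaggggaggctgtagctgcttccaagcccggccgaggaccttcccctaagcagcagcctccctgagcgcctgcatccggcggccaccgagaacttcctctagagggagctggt
Bcl2, minus strand, chr1:106714291-106714540: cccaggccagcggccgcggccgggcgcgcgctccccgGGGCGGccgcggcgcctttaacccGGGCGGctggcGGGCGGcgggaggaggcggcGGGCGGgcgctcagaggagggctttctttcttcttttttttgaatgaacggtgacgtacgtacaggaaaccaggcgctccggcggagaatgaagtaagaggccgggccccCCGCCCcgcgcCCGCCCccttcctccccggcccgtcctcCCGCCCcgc
The Bax window held 2 GC boxes and 1 E box, the Bcl2 window 7 GC boxes, and the Bak1 window none of either. Among 32851 such windows, 32.7% held a GC box and 6.02% an E box. The CCAAT box (CCAAT, in 33.8% of windows) and TATAAA (in 12.4%) were not found in these letters of the 3 windows. A match is a description of the letters and not a measured binding site.

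Among the 10 members Bax had the highest log2 fold change in PDT tumours, 0.84, and Bcl2 the lowest, −0.53. The 2 pore formers had a median log2 fold change of 0.60, against 0.09 for the 3 protectors, 0.04 for the 5 BH3-only genes and −0.00 for all tested genes. A correction for GC content and length took these medians to 0.24, −0.07, −0.12 and −0.08, in the same order. By edgeR, 0 of the 10 members had an adjusted p under 0.05, a threshold met by 0.235% of all tested genes. At an unadjusted p under 0.05 the members were 5. Bax, Bak1 and Bad were higher, a direction and threshold met by 8.63% of all genes, and Bcl2 and Bcl2l11 were lower, as were 7.87% of all genes. DESeq2 called 1 member, Bax, where it called 6.5% of genes, and limma-voom called 0 members and 1.01% of genes. Bax was also the 1 member called without a count filter, where 1.95% of genes were, and 0 members were called after the GC and length correction, where 0.086% of genes were. A model with the replicate number as a block called Bax and 1.1% of genes. The groups of 0 members lay wholly apart with PDT below, as 5.12% of all genes did. Relatives outside the 10 differed from this order: the pore former Bok was at −0.13 (−0.51 after the correction), and the protector Bcl2a1b, at 1.32, had a higher difference than Bax. Reads can be split wrongly between Bcl2a1b and its near-identical copies. Summed over the 3 copies, the log2 ratio of mean CPM was 0.69, below the value for Bax, and the groups overlapped.

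**Figure D1:**
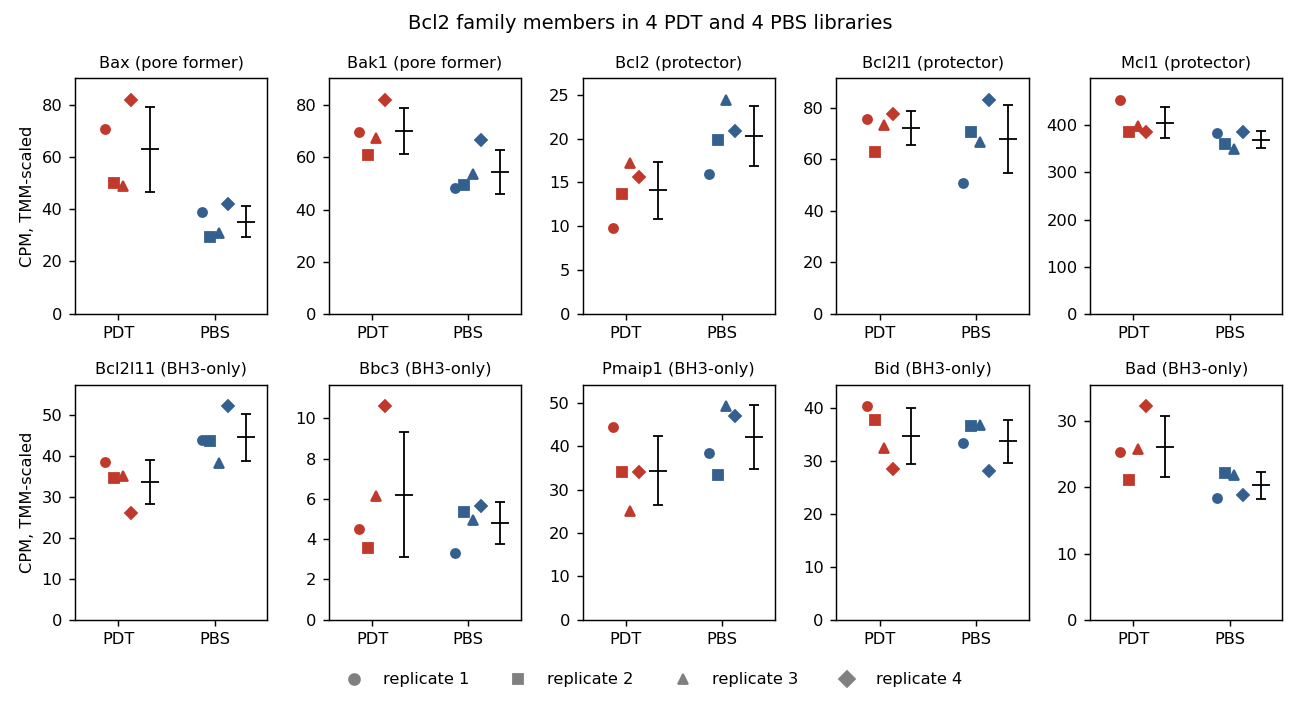
Level of each of the 10 members in CPM of the TMM-scaled library, vertical axes from 0, for 4 PDT libraries (red) and 4 PBS libraries (blue); the black bar is the group mean ± SD. For Bax the 4 PDT libraries, from 48.7 CPM, lie above the 4 PBS libraries, up to 41.9 CPM, and for the other 9 members the groups overlap.

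Bax (ENSMUSG00000003873), which moves from the cytosol to the mitochondrion to form pores, stood at 70.8, 50.1, 48.7 and 81.8 CPM in PDT 1 to PDT 4, and at 38.7, 29.5, 30.9 and 41.9 CPM in PBS 1 to PBS 4. All 4 PDT values lay above all 4 PBS values, as they did for 5% of tested genes, and PDT 1 and PDT 4 were clearly above the other treated libraries. Its mean was 62.9 ± 16.2 CPM in PDT and 35.2 ± 6.01 CPM in PBS (SD, n = 4), 1.79-fold higher with a 95% interval of 1.33 to 2.39. The log2 difference was 0.84 ± 0.19 (SE), with an adjusted p of 0.0816 by edgeR. DESeq2 gave 0.00414 and limma-voom 0.0764. With a single library left out it was 0.69 (without PDT 4) to 0.94, and no such fit reached the threshold (adjusted p 0.0628 to 0.222 in edgeR). Macrophage and neutrophil markers were also higher in the PDT group, and their part in the Bax difference was not tested.

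Bak1 (ENSMUSG00000057789), the pore former that sits in the outer membrane from the start, was at 69.8, 60.9, 67.6 and 82.1 CPM in PDT 1 to PDT 4, against 48.1, 49.4, 53.6 and 66.6 CPM in PBS 1 to PBS 4. Only PBS 4 reached into the range of the PDT libraries. The log2 difference was 0.36 ± 0.14 (SE, adjusted p = 0.234 by edgeR), or 1.29-fold with an interval of 1.03 to 1.60. PDT 4 held the highest level of both pore formers.

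Among the protectors 1 was lower and the other 2 close to level. Bcl2 (ENSMUSG00000057329), the founding survival gene of the family, was at 9.75, 13.7, 17.2 and 15.6 CPM in PDT 1 to PDT 4, and at 16.0, 19.9, 24.4 and 20.9 CPM in PBS 1 to PBS 4. PDT 3 alone exceeded the lowest PBS library, PBS 1, and PDT 1 was the lowest of the 8. The log2 difference was −0.53 ± 0.21 (SE, adjusted p = 0.225 by edgeR), and with 1 library left out it ran from −0.64 (without PDT 3) to −0.38 (without PDT 1). Mcl1 (ENSMUSG00000038612), a short-lived protector that many tumours and myeloid cells depend on, was at 454, 385, 398 and 385 CPM in the PDT libraries, against 383, 360, 349 and 386 CPM in the PBS libraries. These groups overlapped, with a log2 difference of 0.13 ± 0.11 (adjusted p = 0.607), and the interval ran from 0.93-fold to 1.30-fold. Bcl2l1 (ENSMUSG00000007659) was at 75.6, 62.6, 73.1 and 77.5 CPM in PDT, against 50.8, 70.5, 66.8 and 83.0 CPM in PBS. Its lowest and its highest value were both PBS libraries. The difference was 0.09 ± 0.15 on the log2 scale (adjusted p = 0.835), with an interval of 0.84-fold to 1.35-fold, and it turned to −0.02 without PBS 1.

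**Figure D2:**
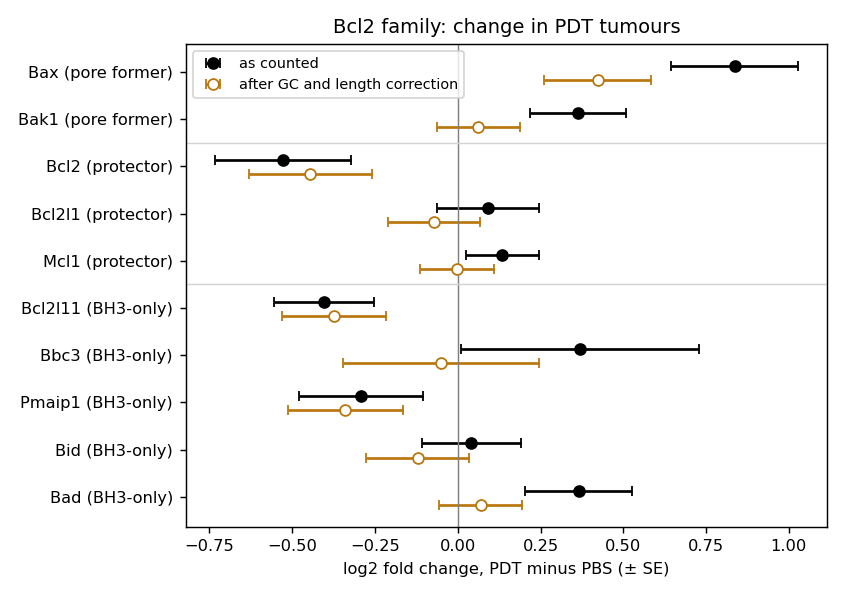
Log2 fold change (PDT minus PBS, horizontal axis, ± SE) of the 10 members, grouped by role from pore formers at the top to BH3-only genes at the bottom; filled black points are the counts as deposited and open points the same fit corrected for GC content and length. Bax is highest at 0.84 and Bcl2 lowest at −0.53, and the correction brings Bax to 0.42 and Bak1 to 0.06.

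Of the BH3-only genes 3 had differences above 0 and 2 below. Bcl2l11 (ENSMUSG00000027381), which encodes Bim, a strong activator of Bax and Bak1, was at 38.6, 34.7, 35.0 and 26.1 CPM in PDT 1 to PDT 4, against 43.9, 43.7, 38.2 and 52.1 CPM in PBS 1 to PBS 4. The groups touched at PDT 1 and PBS 3, and the log2 difference was −0.40 ± 0.15 (SE, adjusted p = 0.210 by edgeR). Bad (ENSMUSG00000024959), which is held inactive by survival kinases, was at 25.4, 21.1, 25.8 and 32.3 CPM in PDT, against 18.3, 22.1, 21.9 and 18.8 CPM in PBS. PDT 2 lay inside the PBS range and the other 3 above it, with a log2 difference of 0.37 ± 0.16 (adjusted p = 0.287).

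Among the others, Bbc3 and Pmaip1 encode Puma and Noxa, classical p53 targets, and Bid is cleaved by caspase-8 or granzyme B to link death receptors to mitochondria. Bbc3 (ENSMUSG00000002083) was at 4.52, 3.57, 6.15 and 10.6 CPM in PDT, against 3.32, 5.34, 4.94 and 5.64 CPM in PBS. PDT 4 was its highest library, and the difference was 0.37 ± 0.36 (adjusted p = 0.675 by edgeR) with all libraries and −0.01 without PDT 4. Pmaip1 (ENSMUSG00000024521) was at 44.4, 34.1, 25.0 and 34.0 CPM in PDT, against 38.6, 33.4, 49.3 and 47.1 CPM in PBS, a log2 difference of −0.29 ± 0.19 (adjusted p = 0.484). Bid (ENSMUSG00000004446) spanned 28.4 to 40.4 CPM in PDT and 28.1 to 36.9 CPM in PBS, with a difference of 0.04 ± 0.15 (adjusted p = 0.933). For these 3 genes the groups overlapped widely, and intervals were 0.75-fold to 2.23-fold for Bbc3, 0.62-fold to 1.08-fold for Pmaip1 and 0.82-fold to 1.29-fold for Bid.

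The Bax to Bcl2 ratio, a common summary of the balance between pore forming and protection, is free of library scaling. It covers 1 protector only. Bcl2 had the lowest mean per kilobase of the 10 members, and the protectors Mcl1 and Bcl2l1 differed by 0.13 and 0.09 on the log2 scale. Per Bcl2 read there were 7.26, 3.66, 2.83 and 5.25 Bax reads in PDT 1 to PDT 4, and 2.42, 1.48, 1.26 and 2.01 in PBS 1 to PBS 4. Every PDT library lay above every PBS library, and PDT 1 was the highest. The mean log2 ratio was 2.15 ± 0.60 in PDT and 0.80 ± 0.42 in PBS (SD, n = 4), a difference of 1.36 or 2.56-fold. The two-sided exact permutation p was 0.0286, the smallest that 70 assignments can give. Bax and Bcl2 had the highest and lowest log2 fold changes of the members, which were chosen with earlier results of these data known. This p is therefore a description, and how many other gene pairs would separate the groups was not counted. After the GC and length correction described below, the fitted changes of both genes gave a 1.82-fold difference in this ratio, with no test. Of Bax plus Bak1 transcripts per kilobase, Bax made up 57.3 ± 3.99% in PDT and 49.6 ± 3.77% in PBS, and those groups overlapped. This share leaves out the pore former Bok, at a mean of 168 CPM in PDT and 184 CPM in PBS over 1840 bases of exon.

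**Figure D3:**
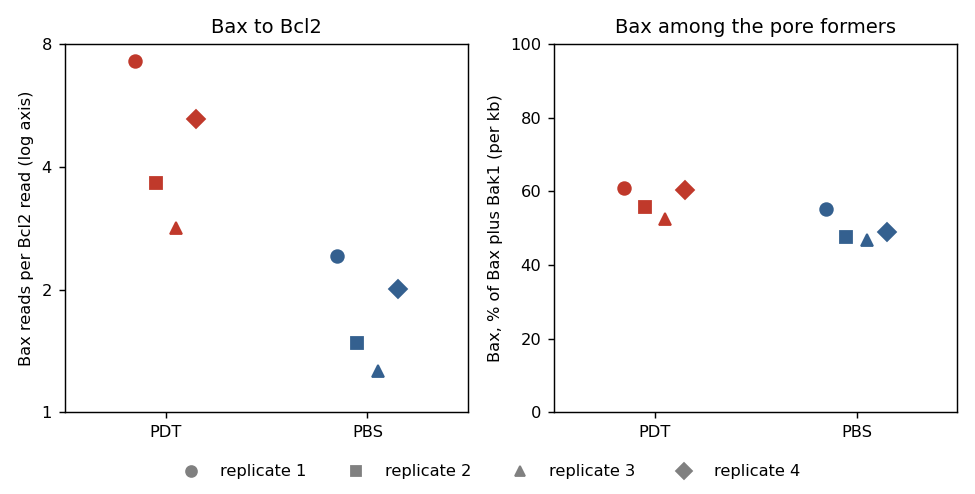
Left, Bax reads per Bcl2 read in each library (log axis), from 2.83 to 7.26 in PDT and from 1.26 to 2.42 in PBS. Right, Bax as a percentage of Bax plus Bak1, each per kilobase of exon, where PBS 1 at 55.1% overlaps the PDT range that starts at 52.4%.

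Levels can be compared between members only per length, here as CPM per kilobase of annotated exon. Mcl1 was first in both groups, at 119 ± 9.64 in PDT and 108 ± 5.28 in PBS (SD, n = 4), and no other member came near it. Bax was second in PDT, at 39.9 ± 10.3 against 29.1 ± 3.69 for Bak1, though their ranges overlapped. In PBS they were alike in level, at 22.4 ± 3.82 for Bax and 22.6 ± 3.51 for Bak1. Bcl2l1 and Pmaip1 came next, at 15.7 ± 1.45 and 12.6 ± 2.90 in PDT, and at 14.8 ± 2.89 and 15.4 ± 2.71 in PBS, with overlapping ranges in each group, and in PDT the ranges of Pmaip1 and Bad overlapped too. Bad and Bid followed with ranges that also overlapped, at 10.2 ± 1.81 and 9.79 ± 1.52 in PDT and at 7.93 ± 0.775 and 9.51 ± 1.15 in PBS. Bcl2l11 was at 4.18 ± 0.657 in PDT and 5.54 ± 0.717 in PBS, and in PDT its range overlapped that of Bbc3. Bbc3 and Bcl2 were lowest, with overlapping ranges in each group, at 2.93 ± 1.47 and 1.54 ± 0.352 in PDT, and at 2.26 ± 0.487 and 2.22 ± 0.378 in PBS. Of the transcripts per kilobase of Mcl1, Bcl2l1 and Bcl2 alone, Mcl1 made up 87.3 ± 1.19% in PDT and 86.4 ± 2.24% in PBS. Bcl2 made up 1.14 ± 0.306% in PDT and 1.78 ± 0.345% in PBS. These shares leave out the protector Bcl2a1b and its copies, which have short exons (817 to 863 bases). Summed, those copies were at 75.6 CPM in PDT and 46.8 CPM in PBS, so the share of Mcl1 among all protectors would be smaller. Exon lengths join all annotated isoforms, so genes with long optional exons such as Bcl2 and Bcl2l11 may be set too low.

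**Figure D4:**
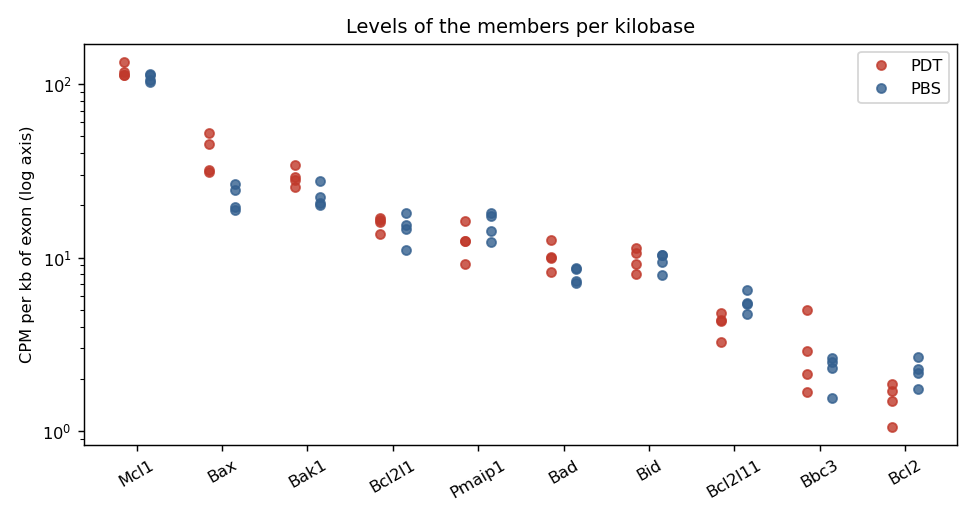
Level of the 10 members per kilobase of annotated exon (CPM per kb, log axis) in PDT (red) and PBS (blue) libraries, ordered by the PDT mean. Mcl1 stands highest, at 119 in PDT and 108 in PBS, and Bcl2 lowest, at 1.54 in PDT and 2.22 in PBS.

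Differences between members ran alongside the composition of their transcripts. Over all tested genes, the 4065 with the highest GC content (54.3% to 74.2%) had a median log2 fold change of 0.13, and the 4065 with the lowest (28.3% to 44.9%) one of −0.15. The 4065 shortest genes, up to 2334 bases of exon, was at 0.14 and the longest, from 6348 bases, at −0.13. The longest Bax transcript has 63.5% GC, and its joined exons span 1576 bases. The longest Bcl2 transcript has 46.3% GC, and its joined exons span 9157 bases. The 4 members of highest GC, Bbc3, Bax, Bad and Bak1 (57.1% to 65.2%), were the 4 with the highest log2 differences, from 0.36 to 0.84. The 3 of lowest GC, Pmaip1, Bcl2 and Bcl2l11 (42.1% to 48.0%), were the 3 that were lower in PDT.

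A correction for GC content and length in each library, chosen with these data known, left Bax at 0.42 ± 0.16 (SE, adjusted p = 0.232 by edgeR) and Bcl2 at −0.44 ± 0.19 (adjusted p = 0.270). It took Bak1 to 0.06 ± 0.13, Bad to 0.07 ± 0.13 and Bbc3 to −0.05 ± 0.30, while Bcl2l11 stayed at −0.37 ± 0.16. Median differences became 0.24 for pore formers, −0.07 for protectors and −0.12 for BH3-only genes, beside −0.08 for all tested genes. Whether the relation to GC and length arose in the tumours or in the libraries was not tested.

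**Figure D5:**
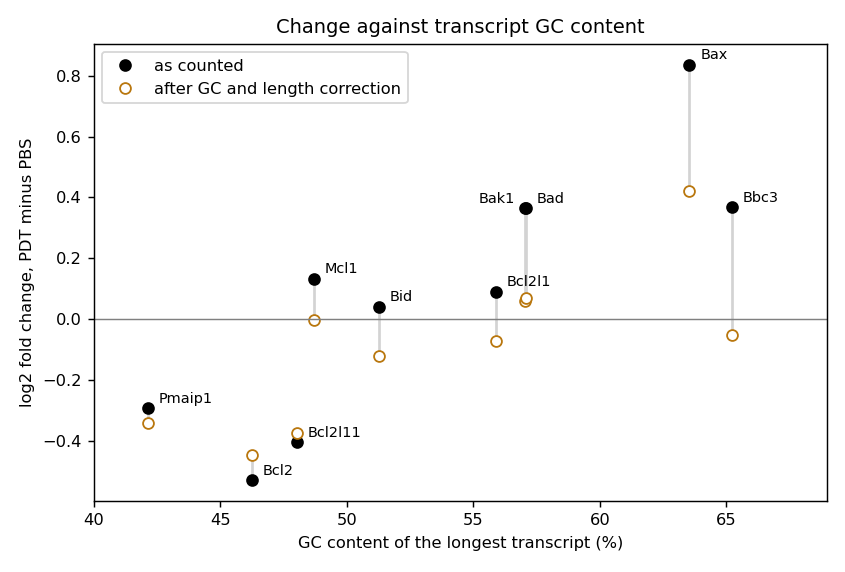
Log2 fold change of each member (PDT minus PBS, vertical axis) against the GC content of its longest annotated transcript (%), as counted (filled) and after the GC and length correction (open), joined by a grey line. Bax at 63.5% GC goes to 0.42 from 0.84, and Bcl2 at 46.3% to −0.44 from −0.53.

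Across the 8 libraries, the genes whose centred log2 level lay closest to that of Bax among 13205 genes compared were Eif4ebp1, Mrpl51 and Crip1, at root mean square distances of 0.093, 0.097 and 0.10. Eif4ebp1 encodes a repressor of translation initiation, Mrpl51 a protein of the mitochondrial ribosome and Crip1 a LIM domain protein. Bak1, the nearest other member, was at 0.298 and Bcl2, the farthest, at 0.812. Since they were picked for following Bax, their differences are a description. On the log2 scale Eif4ebp1 differed by 0.71, Mrpl51 by 0.76 and Crip1 by 0.92, and after the GC and length correction by 0.51, 0.75 and 0.61.

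Other genes of the family were measured beside the 10. Of 15 listed, 12 were tested, 5 higher and 7 lower, with a median of −0.14 and 0 past the threshold in edgeR. Bcl2l10 and Hrk had 0 reads in all 8 libraries, which allows at most 0.0872 CPM in any of them, and Bcl2l15 was too low to test. Bcl2a1b (ENSMUSG00000089929), a mouse copy of the blood cell protector A1, was at 32.3, 26.3, 21.9 and 15.7 CPM in PDT 1 to PDT 4, against 8.87, 8.03, 7.94 and 13.7 CPM in PBS 1 to PBS 4. The groups did not overlap, with PDT above, as was so for 1 of the 12 tested here and for 5% of all tested genes. It was 2.50-fold higher, a log2 difference of 1.32 ± 0.25 (SE), with an adjusted p of 0.0560 by edgeR, and of 0.0301 to 0.176 by edgeR with 1 library left out. DESeq2 gave 0.000159 and limma-voom 0.0468. Its near-identical copies Bcl2a1a and Bcl2a1d differed by 0.44 ± 0.29 and 0.49 ± 0.28 (adjusted p = 0.502 and 0.419 by edgeR), and reads can be split wrongly between them. Summed over the 3 copies the level was 75.6 ± 24.4 CPM in PDT and 46.8 ± 14.0 CPM in PBS (SD, n = 4), with overlap. Macrophage and neutrophil markers were also higher in the PDT group, and their part in the A1 level was not tested. Bmf, a BH3-only gene, differed by −0.32 ± 0.21 (adjusted p = 0.507).

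Partners in the outer membrane were 1 higher and 4 lower, with a median of −0.12 and 0 called. Vdac2, the channel that holds Bak1 in the membrane, was at 437, 366, 317 and 320 CPM in PDT, against 414, 417, 491 and 429 CPM in PBS. PDT 1 alone reached the PBS range, and the log2 difference was −0.28 ± 0.13 (SE, adjusted p = 0.316 by edgeR). Vdac3, Vdac1 and Mtch2, the receptor for cleaved Bid, differed by −0.20, −0.12 and −0.07 (adjusted p = 0.4996 to 0.859).

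Downstream of the pore, 11 of 17 apoptosome and caspase genes were higher and 6 lower, with a median of 0.04 and 0 called in edgeR. Unadjusted p was under 0.05 for 4 higher and 2 lower, where 8.63% and 7.87% of all tested genes were. The groups of 4 lay wholly apart with PDT above and of 1 with PDT below, where those of 5% and 5.12% of all tested genes did. Cycs, cytochrome c itself, was at 120, 114, 108 and 194 CPM in PDT 1 to PDT 4, against 71.0, 68.0, 82.4 and 104 CPM in PBS 1 to PBS 4. Its groups did not overlap, PDT 4 stood far above the rest, and the log2 difference was 0.72 ± 0.20 (SE, adjusted p = 0.117 in edgeR and 0.0198 in DESeq2). It was 0.76 after the GC and length correction. Dffa, the inhibitor of the caspase-activated nuclease, differed by 0.41 ± 0.15 (SE, adjusted p = 0.2096 by edgeR) and Birc3, an inhibitor of apoptosis, by 0.39 ± 0.16 (adjusted p = 0.253).

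Genes that set the level or activity of the members were 5 higher and 8 lower of 13 tested, with a median of −0.08 and 0 called in edgeR. Groups lay wholly apart with PDT above for 2 and with PDT below for 2, where those of 5% and 5.12% of all tested genes did. Usp9x, a deubiquitinase that stabilises Mcl1, was at 55.7, 95.5, 92.9 and 81.7 CPM in PDT, against 105, 128, 121 and 106 CPM in PBS. Its groups did not overlap, and the difference of −0.50 ± 0.17 (SE, adjusted p = 0.171 by edgeR) became −0.24 after the correction. Ywhaz, a 14-3-3 protein of the kind that holds phosphorylated Bad, differed by −0.29 ± 0.11 (adjusted p = 0.206), also with no overlap, and by −0.32 after it. Foxo1, a relative of the Bim-inducing factor Foxo3, differed by −0.44 ± 0.17 (adjusted p = 0.214). Gzmb, the granzyme that can cleave Bid, was at 3.16 to 4.42 CPM in PDT, against 0 reads in PBS 1 and up to 3.10 CPM in the other PBS libraries (adjusted p = 0.408). Summed NK markers were at 7.85 to 12.9 CPM in PDT and 1.58 to 3.55 CPM in PBS, summed T cell markers at 19.0 to 24.1 CPM in PDT and 9.20 to 17.2 CPM in PBS, and their part in the Gzmb level was not tested.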

How the data were processed

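Per the labels' protocols, ribosomal RNA was removed from the total RNA of 8 tumour samples and strand-marking libraries were built. The authors deposited 1 table of raw counts of reads per gene, and columns were matched to samples by the sample descriptions. The submitters' processing notes name cutadapt 4.6, STAR 2.7.11b and GRCm39. How reads were counted, and whether by strand, is not given in the sources used here. For that reason Bak1, Bcl2, Bid and Bad, whose exons overlap a gene on the other strand in GENCODE M21, are less certain. So is Bax, which shares 192 of its 1576 exon bases with Gm45808, a protein-coding gene on the same strand. Between 77.9% and 83.8% of counts from 1 to 20 were even, as they would be if both reads of a pair were counted, and an alternative with halved counts was run.

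Counts were tested with edgeR 4.0.16 in R 4.3.3: filterByExpr, TMM scaling, the quasi-likelihood test of PDT minus PBS, and Benjamini-Hochberg adjustment over the 16588 genes (threshold 0.05). SE is the log2 fold change over the root of F. CPM is reads per 1000000 reads of the scaled library. The ratio had 0.5 added to each count and was tested by exact permutation with scipy 1.17.1. DESeq2 1.42.0 (its Wald test on all genes with a read), limma 3.58.1 (voom with sample weights), other scalings and filters, a replicate block, and each library left out were alternatives. The GC and length correction, fitted in each library as natural splines of 4 degrees of freedom, was added after seeing the data. Exon lengths and GC content came by identifier from GENCODE M21, an annotation of an earlier build, for 98.1% of tested genes. Limits from a count of 0 rest on 3 reads, would be larger if reads of a pair were counted apart, and cover counting error only. Chi-square per degree of freedom was 68.0 to 209 over the 28 pairs of libraries, and none looked like a second copy. The fit was also run on counts simulated with the spread fitted to these data and without a GC or length trend. That run does not bear on such a trend.

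Members and lists were chosen with earlier results of these data known, and lists are described by counts and medians. Named were all 10 members and, of each other list, genes past the threshold and the 4 with the smallest p. Of these, 1 gene is not reported here, though the counts of its list include it. Likeness was the root mean square distance of centred log2 CPM (prior count 2) over genes of at least 1 CPM.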

Additional observations from a re-analysis of the deposited data

Results flagged for a closer look

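Among 52 groups of 4 libraries checked, those of the named genes and of the ratio, a single library lay far from the other 3 in 4, and chance flags about 1 in 20 groups. None of the 4 was a group of one of the 10 members or of the ratio. Cycs in PDT 4 was at 194 CPM, with the rest of PDT at 108 to 120 CPM. Bcl2a1b was at 13.7 CPM in PBS 4, above 7.94 to 8.87 CPM in the rest of PBS. Vdac1 was at 416 CPM in PBS 3, above 367 to 369 CPM in the rest of PBS, and Birc3 was low there, at 18.8 CPM against 23.9 to 24.3 CPM.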

How the results depend on the processing

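Of 180 member values under 18 alternatives, 168 kept their sign and stayed short of the threshold, 3 passed it and 9 changed sign. Bax passed with DESeq2 (0.84), without a count filter (0.85) and with a replicate block (0.82). Those 3 settings gave 1 called member in place of 0, and 3, 3 and 2 called genes of the 61 listed, members included. Limma-voom and a filter of 1 CPM in 4 libraries gave 1 of the 61. Signs turned under the GC and length correction for Bcl2l1 (−0.072), Mcl1 (−0.0022), Bbc3 (−0.052) and Bid (−0.12), and for Bid under limma-voom (−0.0058). Under the GC and length correction the median of all tested genes was itself −0.080. With 1 library left out, values ran from −0.0079 (without PDT 4) to 0.57 for Bbc3, from −0.022 (without PBS 1) to 0.22 for Bcl2l1 and from −0.029 (without PDT 1) to 0.14 for Bid, which was −0.023 without PBS 4. The correction also moved the medians of pore formers to 0.24, of protectors to −0.072 and of BH3-only genes to −0.12. With 1 library left out these medians ran from 0.49 to 0.72, from −0.02 to 0.17 and from −0.03 to 0.09, called members stayed at 0, and listed genes called were 0 to 1.

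Of all genes, 39 were called, which became 69 with upper quartile scaling, 534 without a filter, 88 with 1 CPM in 4 libraries, 182 with a replicate block, 912 with DESeq2, 167 with limma-voom, 67 with halved counts and 14 after the correction, and 0 to 122 with 1 library left out. Same-numbered libraries deviated together at r of 0.038 to 0.069 and 0 of 4 PDT libraries matched best with its own number. This check showed no strong pairing by number and could miss a weak one. As pairs, the log2 Bax to Bcl2 ratio differed by 1.36 (exact permutation p = 0.125, the smallest 4 pairs allow). With 1 library left out it differed by 1.12 to 1.58 (exact permutation p = 0.0571, the smallest that design allows). The causes were not tested.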

Other observations

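Bok, a further pore former of the family, was read at higher CPM than Bax and was at 180, 140, 149 and 203 CPM in PDT 1 to PDT 4, against 176, 153, 240 and 169 CPM in PBS 1 to PBS 4. The groups overlapped, and the difference, −0.13 ± 0.17 on the log2 scale (SE, edgeR adjusted p = 0.760), became −0.51 ± 0.15 after the GC and length correction (adjusted p = 0.147). Bnip3, a hypoxia-induced gene of mitophagy, was at 193 CPM in PDT 1 and 81.0 to 89.4 CPM in the other PDT libraries, against 106 to 143 CPM in PBS. PDT 1 also held the lowest Bcl2 and the highest Bax to Bcl2 ratio of the 8 libraries. These genes were chosen after their values were seen.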
